A study of Glycine max with 16 samples.

Results

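The bZIP transcription factors of soybean, Glycine max cultivar Williams 82, were followed through a heating curve of the leaf. Members were the microarray probe sets that the platform annotation pairs with exactly 1 gene and whose symbol or other name holds BZIP, in any case, followed by digits. This rule gave 103 probe sets of 67 genes, out of 61170 probe sets on the array and 8677 that carry 1 gene, for 6031 genes in all. The symbol itself gave 89 of them and another name gave 14, among them the G-box factors SOYGBFA and GBF2 and the light-signalling factor STF2. RNA from the first fully expanded leaf was hybridised to 16 arrays, 4 for each of 4 states, and all plants were untransformed and of the same cultivar. The states were the growth temperature of 22 °C, the warmer point at which photosynthesis peaked (here called the optimum), and 2 points beyond it where photosynthesis had lost 20% and 30% of that peak (20% and 30% inhibition). Per the labels' protocols, temperature climbed by 2 °C every 10 min and a leaf was taken 20 to 30 min after its state was reached, so that warmer leaves had also spent longer on a curve of 3 to 4 h. The labels give 4 plants per state and leave unsaid whether leaves of different states share a plant, and p-values measure the spread between these arrays.

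A bZIP protein carries a basic region that contacts DNA and a leucine zipper through which it pairs with itself or with another bZIP protein. Many plant bZIP factors bind short elements with the core ACGT, such as the G-box and the abscisic acid response element. In plants the family includes AREB or ABF factors of abscisic acid signalling, HY5 and its soybean counterpart STF1 in light signalling, TGA factors of salicylic acid and detoxification responses, membrane-bound and spliced factors of the unfolded protein response of the endoplasmic reticulum, and small S1 factors tied to low energy supply. Several are controlled after transcription, through splicing, membrane release or phosphorylation, which an array of transcript levels does not record. The BZIP numbers of soybean genes are not those of Arabidopsis, so an equal number does not mean an equal gene.

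Values are MAS5 signals, the Affymetrix summary of 1 intensity per probe set in arbitrary units. They are compared between states, since a probe set's brightness does not measure the level of one gene against another. A probe set was tested when its log2 signal, averaged across all arrays, exceeded 6.08, the median of the non-control probe sets, which is a signal of 67.6. The test was limma's moderated test on log2 signals, with p-values adjusted over all 30517 probe sets that passed this filter and a threshold of 0.05. Of the 103 bZIP probe sets 87 were tested, and these report 58 genes, 23 of them through more than 1 tested probe set. A background level was set for each array at the 95th percentile of the probe sets of an oomycete and a nematode on the same array, assumed not to bind soybean RNA. All 16 arrays lay above it for 63 of the 87. The probe set just inside the filter reported BZIP59 at a mean log2 signal of 6.09, and the one just outside reported BZIP47 at 6.01.

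The arrays differed between states in other ways than the members. The background level averaged 86.2 ± 11.9 at the optimum, 125 ± 28.1 with 20% inhibition and 112 ± 30.8 with 30% inhibition, against 81.8 ± 7.0 at growth temperature (SD, n = 4 each). The difference at 20% inhibition had an exact permutation p of 0.0286, two-sided, the smallest that 4 against 4 arrays can give, and 0.0429 adjusted over 6 tests of array properties. At 30% inhibition the exact p was 0.0857, and at the optimum it was 0.6. The log2 signal of the 3' GlutTrans control probe set exceeded that of the 5' one by 0.80 ± 0.16, 0.89 ± 0.16 and 0.83 ± 0.13 in the 3 warmer states, against 0.07 ± 0.25 at growth temperature, each with an exact p of 0.0286. The part of either property in the bZIP results was not tested. Counts with the background level as a covariate are given below, but no fit adjusted for the GlutTrans difference. That difference, a possible sign of RNA quality or labelling, set growth temperature apart from every warmer state. In comparisons with growth temperature it cannot be told apart from the state. Of 19 probe sets of leaf markers such as RBCS, RCA and CAB, 16 were above background on all 16 arrays. Their summed signal spanned 401703 to 489796 at the optimum and 370687 to 519280 at 20% inhibition, then 375255 to 465480 at 30% inhibition, against 402323 to 508313 at growth temperature. Of the 17 tested, 2 were lower at the optimum, 7 with 20% inhibition and 6 with 30% inhibition, while 0 were higher. Over all probe sets tested 6.26%, 18.6% and 17.7% were lower and 6.63%, 17% and 16.9% higher, in the same order of states. The lower leaf marker probe sets included those of ELIP, RCA14 and PSAD, and ELIP gave the lowest change, -2.86 at 20% inhibition. Of 16 seed marker probe sets 10 were below background on every array and 3 above it. Their summed signal was 23557 to 35091 at growth temperature and 19422 to 39383 at the optimum. It was 16841 to 25561 with 20% inhibition and 13293 to 28123 with 30% inhibition. Of the 3 tested, 1 was lower at 30% inhibition, and 0 were higher in any warmer state. Of 19 root nodule marker probe sets 6 were below background on every array and 4 above it, and their summed signal was 6981 to 9652 at the optimum, 9470 to 13530 with 20% inhibition and 10472 to 15934 with 30% inhibition, against 5560 to 6556 at growth temperature. The nodulin gene NOD33 was the nodule marker that passed the test, with a log2 change of 2.31 ± 0.22 (SE) at 30% inhibition. In whole leaves, fewer cells of a type and less RNA per cell cannot be told apart.

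More bZIP probe sets were higher than lower in each warmer state. At 20% inhibition 33 of 87 differed from growth temperature, beside 35.6% of all probe sets tested, and 23 were higher and 10 lower, beside 17% and 18.6% of all. At 30% inhibition 29 differed, beside 34.7% of all, and 23 were higher and 6 lower, beside 16.9% and 17.7%. At the optimum 14 differed, beside 12.9%, with 10 higher and 4 lower, beside 6.63% and 6.26%. The share of bZIP probe sets that differed in either direction was near that of the array at 20% and at 30% inhibition, and the difference in the split between higher and lower was not tested. The median log2 change of the 87 was 0.03 at the optimum and 0.21 in both inhibited states, beside -0.00, -0.01 and -0.01 over all probe sets tested. A change of at least 2-fold that passed the test was found for 3 probe sets in the optimum comparison, 10 with 20% inhibition and 12 with 30% inhibition, beside 4.06%, 13.4% and 13% of all. The 4 arrays of a warmer state did not overlap with those of growth temperature for 18 probe sets in the optimum comparison, 30 with 20% inhibition and 28 with 30% inhibition, beside 19.7%, 32.4% and 34.8% of all. The moderated F-test over the 4 states called 34, beside 35.5%. With the array background as a covariate, 21 bZIP probe sets differed at 20% inhibition in either direction, beside 23.2% of all.

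**Figure D1:**
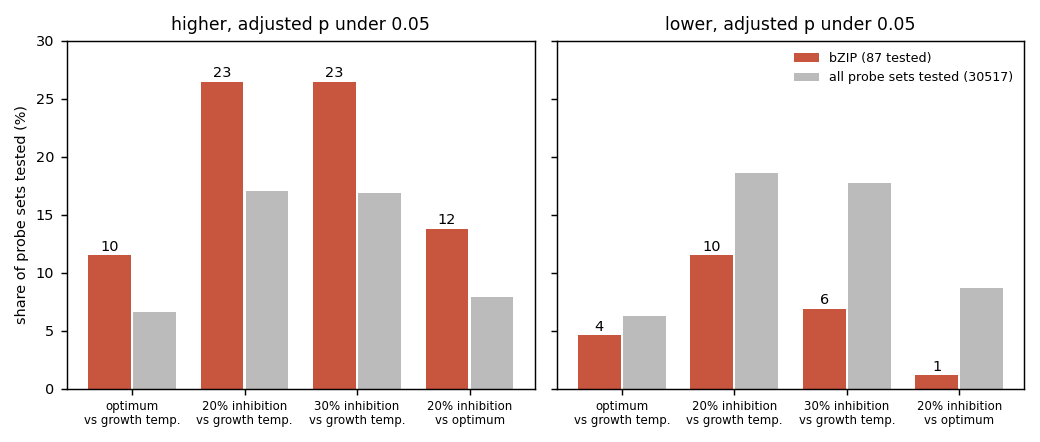
Share of probe sets that were higher (left) or lower (right) with an adjusted p under 0.05 in 4 comparisons, in percent, for the 87 bZIP probe sets tested (red, with their number above the bar) and for all 30517 probe sets tested (grey). The red bars are taller than the grey ones on the left and shorter on the right.

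Counted by gene, with the brightest tested probe set standing for each of the 58, 7 genes were higher and 4 lower at the optimum, 18 higher and 8 lower at 20% inhibition, and 19 higher and 5 lower at 30% inhibition. The 5 genes that were higher in all 3 warmer states were BZIP1, BZIP105, BZIP28, BZIP53B and BZIP68. A further 10 were higher in both inhibited states but did not pass at the optimum, and 5 were lower in both inhibited states. In 26 genes no warmer state passed. Shares over all genes of the array are not given here, so these counts are to be read beside the shares by probe set above. No gene had 1 probe set that passed upwards and another that passed downwards.

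**Figure D2:**
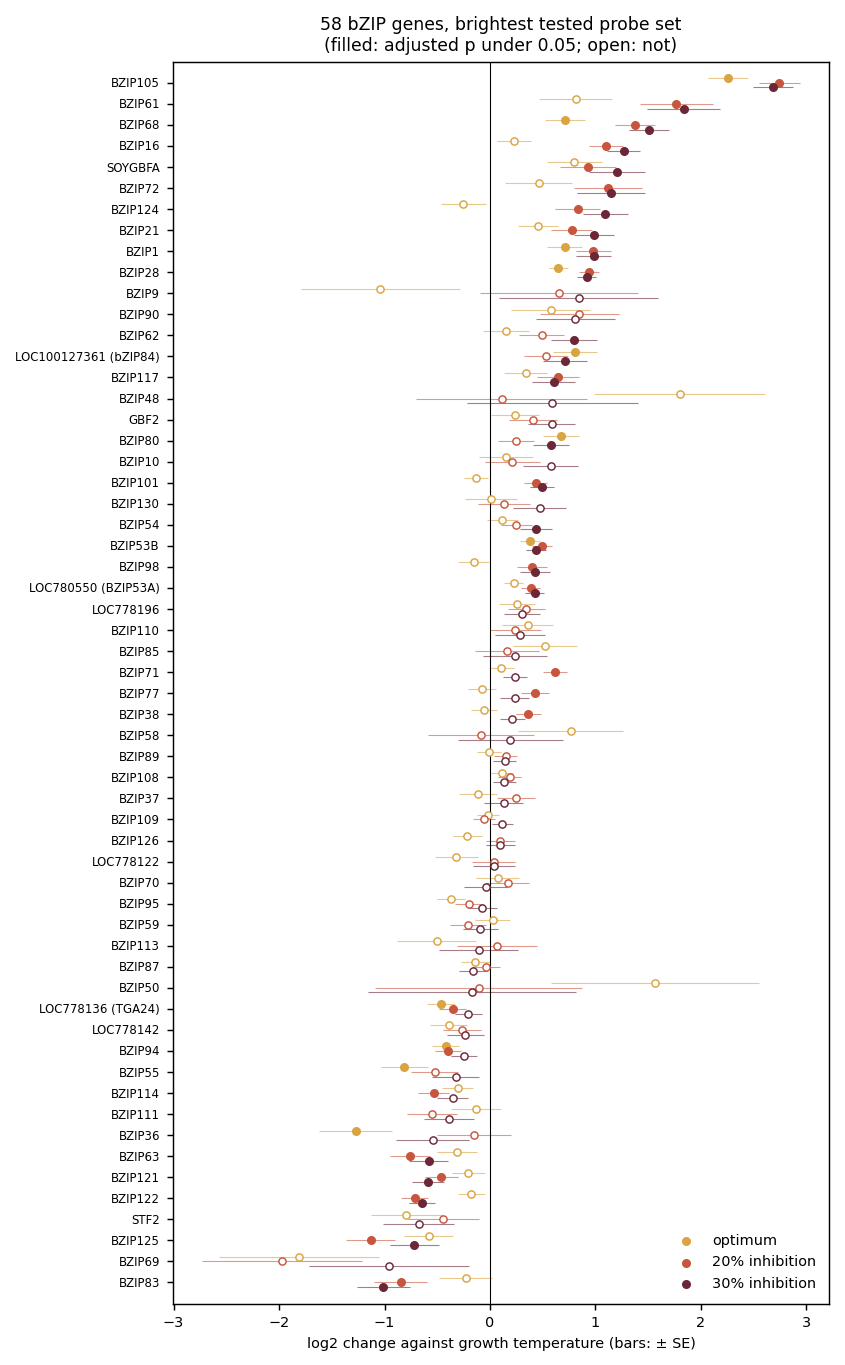
Log2 change of the brightest tested probe set of each of 58 bZIP genes against growth temperature (x axis, bars are ± SE), at the optimum, at 20% and at 30% inhibition, sorted by the change at 30% inhibition. Filled points passed the test at an adjusted p of 0.05, and BZIP105 stands above all other genes with changes of 2.25, 2.75 and 2.69.

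BZIP105 had the largest rise among the 58 genes in each warmer state, and it passed the test at the optimum already. This gene has been studied in soybean for its response to the Asian rust fungus. Its brightest probe set had signals of 451, 556, 353 and 414 at growth temperature, 1688, 2663, 1662 and 2537 at the optimum, 3586, 2385, 3326 and 2604 at 20% inhibition, and 2746, 3113, 2288 and 3217 at 30% inhibition. Each warm array exceeded the highest array at growth temperature by a wide margin. The rise was 4.77-fold at the optimum, 6.71-fold at 20% inhibition and 6.44-fold at 30% inhibition, with log2 changes of 2.25, 2.75 and 2.69 (SE 0.19 each) and adjusted p of 1.3e-06, 1.9e-08 and 2.4e-08. A second probe set gave 2.09, 2.37 and 2.50, all passing. Another, with 2 growth temperature arrays below background, gave 0.76, 0.65 and 0.70 and did not pass. The step between the optimum and 20% inhibition, 0.49 ± 0.19 by the brightest probe set, did not pass (adjusted p = 0.09).

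BZIP1, also named AREB1, is a factor of the group that binds the abscisic acid response element. It rose in all 3 warmer states. Its brighter probe set had signals of 643, 631, 469.9 and 478 at growth temperature, 673, 1074, 905 and 990.3 at the optimum, 1164, 1012, 976 and 1195 at 20% inhibition, and 891, 1245, 1268 and 991 at 30% inhibition. The lowest optimum array, 673, lay just above the highest array at growth temperature, and all arrays of the inhibited states lay well above it. The log2 changes were 0.71, 0.98 and 0.98 (SE 0.17, adjusted p of 0.0099, 0.00024 and 0.00024). The other probe set gave 0.65, 1.61 and 1.15, and by it the step between the optimum and 20% inhibition passed as well (0.96 ± 0.18, adjusted p = 0.0016).

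The list of other dehydration and abscisic acid genes held 45 probe sets of 35 genes, of which 21 probe sets of 16 genes were tested. At the optimum 5 were higher and 2 lower, beside 6.63% and 6.26% of all probe sets tested. At 20% inhibition 10 were higher and 2 lower, beside 17% and 18.6% of all. At 30% inhibition 9 were higher and 2 lower, beside 16.9% and 17.7% of all. ERD15, an early dehydration-responsive gene, rose by 1.57 ± 0.16, 1.97 ± 0.16 and 2.01 ± 0.16 on the log2 scale by one of its probe sets. The dehydrin MAT1 rose by 1.31 ± 0.34 at 20% and 1.33 ± 0.34 at 30% inhibition. PM12, a seed maturation protein gene, was below background on all 4 growth temperature arrays and was at least 4.07-fold higher at 20% inhibition by one probe set (adjusted p = 5.2e-05). Both probe sets of the seed maturation gene PM23 fell in each warmer state, by 1.06 and 1.29 on the log2 scale at 30% inhibition. The tested probe sets of the list had a median log2 change of 0.76 at 30% inhibition, beside -0.01 over all probe sets tested. The filter averages all arrays, so members dim at growth temperature could enter through the warmer states where they were high. PM12, below background at growth temperature, may be one of them. The counts of higher and lower probe sets and the median therefore do not describe the whole list.

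BZIP68 is the soybean gene of the bZIP60 type, whose transcript is spliced by IRE1 when unfolded proteins build up in the endoplasmic reticulum. The annotation lists its spliced and unspliced forms under the names GmbZIP68s and GmbZIP68u, and the probe sets do not tell them apart here. Its brighter probe set had signals of 1146, 979.7, 1151 and 1881 at growth temperature, 2735, 2052, 1958 and 1609 at the optimum, 3036, 3539.5, 3915 and 2636 at 20% inhibition, and 3872, 3600.1, 3311 and 3437 at 30% inhibition. The inhibited states lay above all arrays at growth temperature, while the optimum overlapped with its replicate 4. The rise was 1.64-fold, 2.6-fold and 2.84-fold, with log2 changes of 0.72, 1.38 and 1.51 (SE 0.19, adjusted p of 0.019, 3.1e-05 and 1.3e-05). At the optimum the call ended without growth temperature replicate 1, 2 or 3 or optimum replicate 1, with changes of 0.58 to 0.68 and adjusted p of 0.0538 to 0.0658. The dimmer probe set gave 0.33, 0.84 and 0.44 and passed at 20% inhibition (adjusted p = 0.048).

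BZIP37 and BZIP38 are described in soybean as relatives of the membrane-bound factors of the Arabidopsis unfolded protein response. They are read by probe sets of the same design cluster. BZIP38 had signals of 4982, 4934, 3741 and 3733 at the optimum, 5977, 5924, 6124 and 5089 at 20% inhibition, and 5112, 5408, 4874 and 5341 at 30% inhibition, against 4177, 5183, 3903 and 4748 at growth temperature. It rose by 0.36 ± 0.12 on the log2 scale at 20% inhibition (adjusted p = 0.025), while 30% inhibition gave 0.21 (adjusted p = 0.19). That call ended without growth temperature replicate 1 or 3 or 20% inhibition replicate 1, 2 or 3, with changes of 0.30 to 0.35 and adjusted p of 0.056 to 0.0867. BZIP38 at 20% inhibition also exceeded the optimum, by 0.42 ± 0.12 (adjusted p = 0.024), and this call ended without optimum replicate 3 or 4 or 20% inhibition replicate 1, 2 or 3, at 0.35 to 0.41 and adjusted p of 0.0559 to 0.0815. With the background covariate the adjusted p of these 2 changes was 0.0693 and 0.0745, and without the 3 arrays of highest background it was 0.171 and 0.178. A dimmer probe set of BZIP38 gave 0.96 ± 0.43 and 0.57 ± 0.43 for them, neither passing. BZIP37 gave -0.12, 0.25 and 0.13 (SE 0.18) and passed in no state, with a 95% interval of -0.25 to 0.51 at 30% inhibition.

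Genes of protein folding in the endoplasmic reticulum, known in plants as targets of these factors, were tested through 14 probe sets of 8 genes. In each warmer state 6 were higher, and 1 was lower at 20% inhibition. Of all probe sets tested, 6.63%, 17% and 16.9% were higher at the optimum, 20% and 30% inhibition, and 18.6% were lower at 20% inhibition. The 6 higher ones belong to BIP4, the chaperone BiP, to PDIM-1 and to LOC100170705 (PDIL-1), both protein disulfide isomerases. Whether bZIP factors act on these genes here was not tested. BIP4 rose by 1.90 ± 0.17, 2.79 ± 0.17 and 2.84 ± 0.17 on the log2 scale by one probe set, and PDIM-1 by 1.14 ± 0.13, 2.12 ± 0.13 and 2.09 ± 0.13. The one that fell was LOC100814374 (GmPDIL6), by 0.61 at 20% inhibition.

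BZIP36, also named SOYSTF1A, and STF2, also named SOYSTF1B, are the soybean STF1 genes, of the HY5 type, which promotes photomorphogenesis and restrains elongation in light. BZIP36 fell at the optimum and did not pass in either inhibited state. Its signals were 204, 437, 612 and 263 at growth temperature, 105, 188, 145 and 146 at the optimum, 239, 262, 344 and 434 at 20% inhibition, and 152, 387, 276 and 195 at 30% inhibition. All 4 optimum arrays lay below every array at growth temperature and at 20% inhibition, while those other states overlapped widely. The change at the optimum was -1.27 ± 0.35 (adjusted p = 0.023), and 20% inhibition exceeded the optimum by 1.12 ± 0.35 (adjusted p = 0.036). The fall did not pass without growth temperature replicate 2 or 3 or optimum replicate 1 or 4, at adjusted p of 0.051 to 0.0847. The step up did not pass without optimum replicate 1, 3 or 4 or 20% inhibition replicate 3 or 4, with changes of 0.96 to 1.13 and adjusted p of 0.068 to 0.0968, nor with the background covariate (0.261), nor when the 3 arrays of highest background were left out (0.131).

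STF2 gave changes of -0.79 ± 0.34, -0.44 ± 0.34 and -0.68 ± 0.34 and passed in no state (adjusted p of 0.14, 0.33 and 0.14). Its signals at the optimum, 78.7, 80.6, 104 and 75.7, stood beside 141, 153, 222 and 93.3 at growth temperature. With signals under background set to that level, the changes of STF2 were -0.72, -0.10 and -0.25. Of 9 other genes of light signalling, 16 probe sets were tested. At the optimum 1 was lower, beside 6.26% of all probe sets tested. At 20% inhibition 1 was higher and 2 lower, beside 17% and 18.6% of all. At 30% inhibition 2 were higher and 3 lower, beside 16.9% and 17.7% of all. ELIP, the early light-induced protein gene, fell by 1.29 ± 0.21, 2.86 ± 0.21 and 2.62 ± 0.21 on the log2 scale. The cryptochrome gene CRY2B fell by 0.68 at 30% inhibition, and LOC100808627 (GmCRY2c) rose by 0.88.

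SOYGBFA, also named GBF1, and GBF2 are G-box binding factors. SOYGBFA had signals of 366, 569, 358 and 267 at growth temperature, 518, 561, 589 and 1073 at the optimum, 757, 608, 944 and 600.3 at 20% inhibition, and 923, 599.8, 1129.9 and 901 at 30% inhibition. Both inhibited states lay above growth temperature without overlap, and the optimum overlapped with its replicate 2. The changes were 0.80 ± 0.26 at the optimum (adjusted p = 0.057), 0.93 ± 0.26 at 20% (0.012) and 1.21 ± 0.26 at 30% inhibition (0.002). With the array background as a covariate the change at 20% inhibition was 0.66 (adjusted p = 0.191), and without the 3 arrays of highest background it was 0.84 (adjusted p = 0.0655). GBF2 gave 0.24, 0.41 and 0.58 (SE 0.22) and did not pass, with an adjusted p of 0.053 at 30% inhibition.

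LOC778136, also named GmTGA24, is a TGA factor. It had signals of 1444, 1374, 1067 and 1125 at the optimum and 1341, 1384, 1602 and 1082 at 20% inhibition, against 1638, 1682, 1701 and 1837 at growth temperature. Neither state overlapped with growth temperature. It fell by 0.46 ± 0.13 at the optimum (adjusted p = 0.026) and by 0.35 ± 0.13 at 20% inhibition (adjusted p = 0.042), and gave -0.21 at 30% inhibition (adjusted p = 0.24). The first call ended without growth temperature replicate 3 or 4 or optimum replicate 3 or 4, at adjusted p of 0.058 to 0.0844. The second ended without any of the 4 growth temperature arrays, 20% inhibition replicate 1, 2 or 4, or 30% inhibition replicate 1, at -0.38 to -0.25 and adjusted p of 0.0514 to 0.133 and with the background covariate (0.135). BZIP95, a name that the RefSeq table lists for LOC778136 as well, was read by its own probe set, which gave -0.37, -0.20 and -0.07 (SE 0.14) and passed in no state. The annotation treats both as separate genes, and the 67 genes count them so.

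BZIP83 had the largest fall among the 58 genes at 30% inhibition. The RefSeq table lists a gene of this symbol, with the other name GmTGA18, under another gene identifier than the annotation. Its signals were 307, 428, 391 and 263 at growth temperature, 285, 310.5, 281 and 286 at the optimum, 173, 164, 197 and 230.0 at 20% inhibition, and 143, 104, 240.0 and 228 at 30% inhibition. The inhibited states lay below every array at growth temperature, with 1 array of 30% inhibition under background, and the optimum lay within its range. The changes were -0.23, -0.85 and -1.01 (SE 0.25), with adjusted p of 0.63, 0.014 and 0.0048. At 20% inhibition the adjusted p was 0.0717 with the background covariate and 0.0644 without the 3 arrays of highest background.

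The other genes around TGA factors were mainly glutathione S-transferases, which conjugate glutathione to reactive compounds, and moved both ways. Of 45 tested probe sets of 31 genes, 4 were higher and 5 lower at the optimum, beside 6.63% and 6.26% of all probe sets tested. At 20% inhibition 8 were higher and 7 lower, beside 17% and 18.6% of all. At 30% inhibition 14 were higher and 5 lower, beside 16.9% and 17.7% of all. GSTa rose by 1.29 ± 0.14 at 30% inhibition and GSTU37 by 0.99 ± 0.11, while LOC547576 (GSTU3) fell by 1.61 ± 0.20 and GSTU1 by 0.95 ± 0.17. PR1-7, of the pathogenesis-related PR-1 family, rose by 2.72 ± 0.81 at 30% inhibition (adjusted p = 0.016).

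LOC780550, also named bZIP53A, and BZIP53B carry the name of an Arabidopsis factor of the S1 group. Their probe sets belong to 1 design cluster. BZIP53B had signals of 3765, 4018, 3989 and 3795 at growth temperature, 4678, 5671, 4945 and 4999.9 at the optimum, 6205, 5026, 5043 and 5709 at 20% inhibition, and 5149, 5585, 4702 and 5692 at 30% inhibition. All warm arrays exceeded all arrays at growth temperature, although the rise was small. It came to 1.3-fold, 1.41-fold and 1.35-fold, with log2 changes of 0.38, 0.49 and 0.44 (SE 0.10) and adjusted p of 0.015, 0.00078 and 0.0021. The call at the optimum ended without optimum replicate 2 (0.32, adjusted p = 0.0576). LOC780550 gave 0.22, 0.39 and 0.42 (SE 0.09) and passed at 20% and 30% inhibition (adjusted p of 0.0034 and 0.0018). The asparagine synthetase gene AS2, of a family known as an S1 target in Arabidopsis, fell by 1.46 ± 0.29, 3.72 ± 0.29 and 4.08 ± 0.29 on the log2 scale by its brighter probe set. Of 3 probe sets of 2 low-energy genes, 0 were higher in any state and those of AS2 made up the 2 that were lower in each inhibited state. Over all probe sets tested 18.6% were lower at 20% inhibition and 17.7% at 30% inhibition.

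BZIP61 was higher in both inhibited states, and its signals at growth temperature were near background. Its signals were 67.8, 69.7, 35 and 89.4 at growth temperature, where 3 of 4 arrays were below background, 93.7, 68.8, 123 and 178 at the optimum, 229, 249, 155 and 226 at 20% inhibition, and 255, 155, 226 and 271 at 30% inhibition. Both inhibited states lay above every array at growth temperature. The changes were 0.81 ± 0.35 (adjusted p = 0.14), 1.77 ± 0.35 (0.00077) and 1.84 ± 0.35 (0.00059), or 3.41-fold and 3.57-fold in the inhibited states. With signals under background set to that level, the changes in the inhibited states were 1.32 and 1.38. On that scale BZIP61 came after BZIP105 and BZIP68 in both, while with signals as deposited it came right after BZIP105.

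BZIP62 is read by probe sets of the same design cluster as BZIP61 and has been studied as a stress-responsive factor in transgenic Arabidopsis. It lay outside the rule for named genes and is given for this comparison. One probe set gave 0.15, 0.49 and 0.80 (SE 0.22) and passed at 30% inhibition (adjusted p = 0.0086). The other gave 0.41, 1.07 and 1.06 (SE 0.26) and passed at 20% and 30% inhibition (adjusted p of 0.0035 and 0.0039). The difference between BZIP61 and BZIP62 was not tested.

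**Figure D3:**
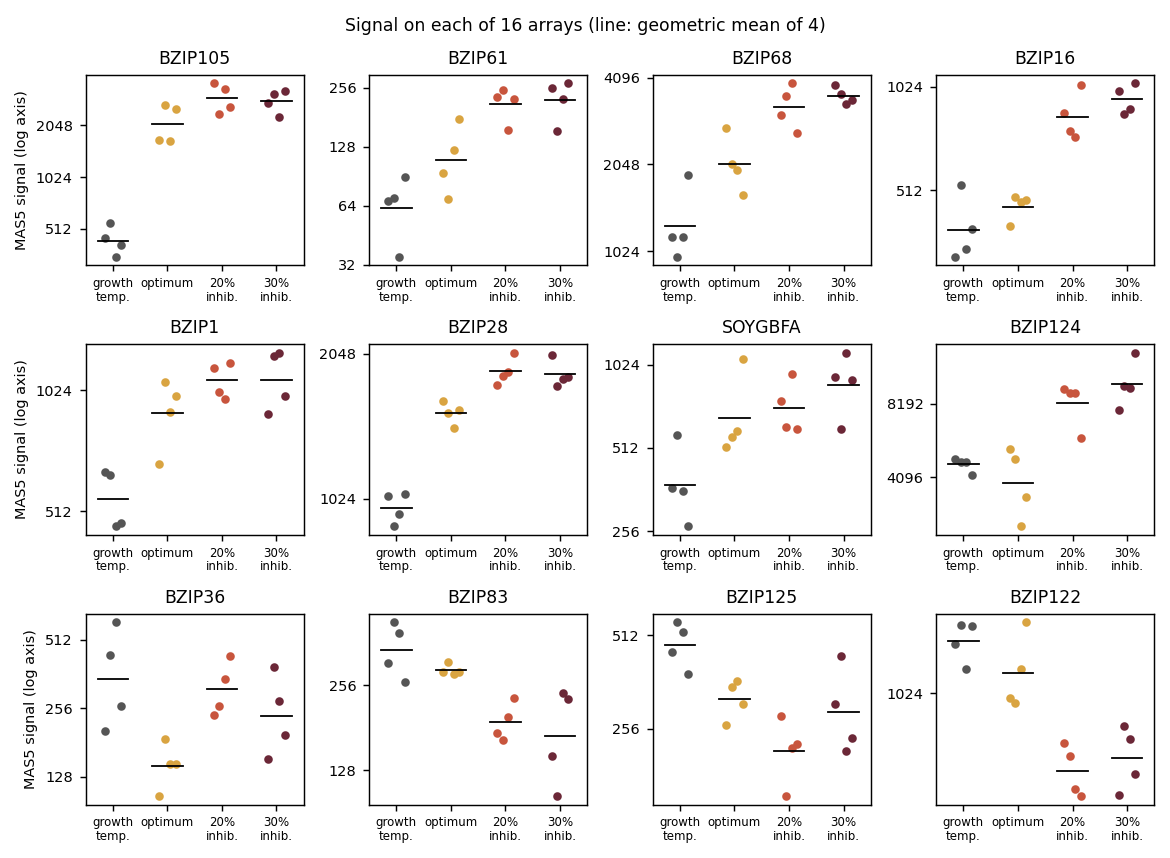
MAS5 signal (log axis) of the brightest probe set of 12 bZIP genes on each of the 16 arrays, in the order growth temperature, optimum, 20% and 30% inhibition, with the geometric mean of 4 arrays as a line. BZIP105 rises at the optimum, BZIP16 and BZIP124 stay near their growth temperature range there and are higher in both inhibited states, BZIP36 is low at the optimum, and BZIP83, BZIP125 and BZIP122 are lowest in the inhibited states.

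Between the optimum and 20% inhibition 13 of 87 bZIP probe sets differed, beside 16.6% of all, and 12 of them were higher at 20% inhibition and 1 lower, beside 7.87% and 8.7% of all. With the background covariate 7 differed, beside 7.28% of all, and without the 3 arrays of highest background 4 differed, beside 9.39% of all. A change of at least 2-fold passed for 2, beside 4.01% of all, and the arrays of both states did not overlap for 12, beside 20.6%. By gene 10 were higher and 1 lower. In 7 of the 10, 20% inhibition exceeded both the optimum and growth temperature while the optimum did not differ from growth temperature. These were BZIP16, BZIP124, BZIP101, BZIP98, BZIP71, BZIP77 and BZIP38, each by its brightest probe set.

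BZIP16 had signals of 327, 528, 344 and 393 at growth temperature, 401, 487, 471 and 478 at the optimum, 859, 763, 729.7 and 1034 at 20% inhibition, and 995, 853, 879.9 and 1049.8 at 30% inhibition. The first pair of states overlapped, and every array of the inhibited states lay above both. The changes against growth temperature were 0.23, 1.10 and 1.27 (SE 0.16), with adjusted p of 0.4, 4.7e-05 and 1.2e-05, and 20% inhibition exceeded the optimum by 0.87 (adjusted p = 0.0013). These 3 calls held in every alternative that was run.

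BZIP124, whose probe set had the highest mean signal of the members, was higher in both inhibited states. Its signals were 4859, 4737, 4735 and 4196 at growth temperature, 5323, 4877, 2572 and 3387 at the optimum, 9393, 9104, 9061 and 5946 at 20% inhibition, and 7710.1, 9681, 9518 and 13294 at 30% inhibition. No array of an inhibited state overlapped with the cooler states. It rose 1.78-fold at 20% and 2.13-fold at 30% inhibition (log2 changes of 0.83 and 1.09, SE 0.21, adjusted p of 0.0058 and 0.0008), and 20% inhibition exceeded the optimum by 1.09 (adjusted p = 0.0024). Without the 3 arrays of highest background the change at 20% inhibition was 0.69 against growth temperature (adjusted p = 0.0809) and 0.95 against the optimum (adjusted p = 0.0505).

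The smaller steps of this kind, named here after their values were seen, came from BZIP101, BZIP98, BZIP71 and BZIP77. BZIP101 exceeded the optimum by 0.56 ± 0.11 at 20% inhibition (adjusted p = 0.0026), with 978, 1010.3, 988 and 869 there against 776, 600.4, 635 and 600.0 at the optimum. BZIP71 did so by 0.51 ± 0.12, BZIP98 by 0.56 ± 0.14 and BZIP77 by 0.50 ± 0.14. These values are those of the brightest probe sets, and the second probe set of each gene did not pass this step. It gave 0.11 ± 0.16 for BZIP101 (adjusted p = 0.7), 0.28 ± 0.18 for BZIP71 (0.32), 0.64 ± 0.44 for BZIP98 (0.36) and 0.00 ± 0.17 for BZIP77 (0.99). Against growth temperature at 20% inhibition the second probe set of BZIP101 gave -0.04. At 30% inhibition BZIP101 and BZIP98 still differed from growth temperature, by 0.49 and 0.43, while BZIP71 gave 0.24 and BZIP77 gave 0.23, neither passing.

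BZIP28 rose in each warmer state with little spread. Its signals were 1039, 898, 952 and 1049 at growth temperature, 1629.7, 1543, 1434 and 1564 at the optimum, 1763, 1839, 1879 and 2056 at 20% inhibition, and 2034, 1753, 1814 and 1834 at 30% inhibition. The optimum lay between growth temperature and the inhibited states with no overlap on either side. The changes were 0.65, 0.94 and 0.92 (SE 0.09), with adjusted p of 0.00021, 1e-06 and 1.3e-06. A second probe set of this gene gave 0.72, 1.20 and 1.22. The step between the optimum and 20% inhibition, 0.29 (adjusted p = 0.043), ended when any of 13 arrays was left out, at 0.25 to 0.32 and adjusted p of 0.0506 to 0.115. Growth temperature replicates 2 and 4 and 30% inhibition replicate 1 were the arrays whose removal kept it. It also ended with the background covariate (adjusted p = 0.0662) and without the 3 arrays of highest background (0.143). By the second probe set the step was 0.48 (adjusted p = 0.02).

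BZIP21 gave 0.46, 0.78 and 0.99 (SE 0.19) and passed at 20% and 30% inhibition (adjusted p of 0.0047 and 0.00078). BZIP72, with 2 growth temperature arrays below background, gave 0.46, 1.12 and 1.15 (SE 0.32) and passed in the same states (0.012 and 0.01). With the background covariate its changes were 0.84 (adjusted p = 0.171) and 0.95 (adjusted p = 0.0717), and without the 3 arrays of highest background the change at 20% inhibition was 0.98 (adjusted p = 0.096).

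BZIP80 and LOC100127361 (bZIP84) were highest on average at the optimum. BZIP80 had signals of 1685, 1485, 1317 and 1155 at growth temperature, 2675, 2172, 1939 and 2187 at the optimum, 2031, 1807, 1406 and 1459.9 at 20% inhibition, and 2561, 1871, 1608 and 2459 at 30% inhibition. It rose by 0.67 ± 0.17 at the optimum (adjusted p = 0.015) and by 0.58 ± 0.17 at 30% inhibition (0.014), and 20% inhibition, which overlapped with growth temperature, gave 0.25 (0.28). The call at 30% inhibition ended without 30% inhibition replicate 1 (0.48, adjusted p = 0.0501). LOC100127361 gave 0.81, 0.53 and 0.71 (SE 0.21), with adjusted p of 0.016, 0.058 and 0.014, and the call at the optimum ended without optimum replicate 4 (0.72, adjusted p = 0.0583). Neither gene differed between the optimum and 20% inhibition by the test (adjusted p of 0.099 and 0.4).

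Among the 58 genes tested, fewer fell than rose in each warmer state. BZIP125 had signals of 263, 347, 364 and 307 at the optimum, 281, 155, 222 and 228 at 20% inhibition, and 306, 439.8, 217 and 239 at 30% inhibition, against 451, 563, 524 and 383 at growth temperature. All arrays of the optimum and of 20% inhibition lay below growth temperature, and 1 array of 30% inhibition lay within it. The changes were -0.58 (adjusted p = 0.12), -1.13 (0.0011) and -0.72 (0.024), with an SE of 0.23. The last call ended without growth temperature replicate 2 or 3 or 30% inhibition replicate 3 or 4, at -0.67 to -0.58 and adjusted p of 0.0627 to 0.0793, with the background covariate (0.086) and without the 3 arrays of highest background (0.0569).

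BZIP122 was the gene that fell between the optimum and 20% inhibition. Its signals were 1233, 1328, 1125 and 1323 at growth temperature, 1005, 986, 1124 and 1342 at the optimum, 846, 805, 712 and 692 at 20% inhibition, and 695, 903, 859.7 and 754 at 30% inhibition. Both inhibited states lay below all 8 cooler arrays. It fell by 0.71 ± 0.13 at 20% and 0.65 ± 0.13 at 30% inhibition (adjusted p of 0.00032 and 0.0008), and by 0.54 ± 0.13 at 20% inhibition relative to the optimum (0.008). That last step had an adjusted p of 0.0575 without the 3 arrays of highest background.

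BZIP63 fell by 0.76 ± 0.19 at 20% and 0.58 ± 0.19 at 30% inhibition (adjusted p of 0.0046 and 0.024), with signals of 565, 584, 311 and 739 at 20% and 599.7, 556, 657 and 566 at 30% inhibition, against 905, 834, 907 and 906 at growth temperature. With the background covariate its changes were -0.50 (adjusted p = 0.141) and -0.40 (0.174), and at 20% inhibition it was -0.46 without the 3 arrays of highest background (adjusted p = 0.02). At 30% inhibition the call ended without growth temperature replicate 1 or 3 or 30% inhibition replicate 2 or 4, at adjusted p of 0.0507 to 0.0572.

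BZIP121 fell by 0.46 ± 0.16 at 20% and 0.59 ± 0.16 at 30% inhibition (adjusted p of 0.029 and 0.0075). The call at 20% inhibition ended without growth temperature replicate 1, 2 or 4 or 20% inhibition replicate 1 or 2, at -0.46 to -0.33 and adjusted p of 0.0562 to 0.102, with the background covariate (0.282) and without the 3 arrays of highest background (0.131). The call at 30% inhibition ended with the covariate (0.0553). BZIP114 fell by 0.53 ± 0.15 at 20% inhibition (adjusted p = 0.0087), and gave -0.41 with the background covariate (0.141) and -0.38 without the 3 arrays of highest background (0.132). Its other probe sets gave -0.30 and -0.09 at 20% inhibition, neither passing.

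BZIP94 and BZIP55 fell at the optimum. BZIP94 gave -0.42, -0.40 and -0.25 (SE 0.12) and passed at the optimum and at 20% inhibition (adjusted p of 0.034 and 0.02). At the optimum its call ended without growth temperature replicate 2, 3 or 4 or optimum replicate 1, 2 or 4, at adjusted p of 0.0518 to 0.101, and at 20% inhibition without growth temperature replicate 2 or 3 or 20% inhibition replicate 1, at 0.0557 to 0.0662, with the background covariate (0.104) and without the 3 arrays of highest background (0.063). Its second probe set gave -0.25, -0.71 and -0.64 (SE 0.23) and passed at 20% and 30% inhibition (adjusted p of 0.022 and 0.04). BZIP55 had signals of 899, 1064, 698 and 554 at the optimum, against 1506, 1504, 1229 and 1262 at growth temperature, with no overlap and a change of -0.81 ± 0.22 (adjusted p = 0.025). Its second probe set gave 0.03 ± 0.14 in the same comparison. The call ended without growth temperature replicate 1 or 2 or optimum replicate 3 or 4, at -0.77 to -0.65 and adjusted p of 0.0641 to 0.0896.

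Between 30% and 20% inhibition 0 of 87 bZIP probe sets differed by limma's adjusted p, beside 0% of all, and 2 had an unadjusted p under 0.05, beside 3.91% of all. The arrays did not overlap for 2, the dimmer probe set of BZIP55 and the brighter one of BZIP71, both lower at 30% inhibition, beside 2.06% of all. The median log2 change of the 87 was 0.05, beside 0.01 over all. The 95% interval of this difference had a median half-width of 0.40 on the log2 scale over the 58 genes, and for 26 genes the whole interval lay within 0.5, which is 1.41-fold. BZIP105, for example, gave an interval of -0.46 to 0.34.

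The probe sets of 1 gene did not always give the same size of change. Of the 23 genes with more than 1 tested probe set, 18 had the same sign in all of them at 30% inhibition, and the gap between the highest and the lowest log2 change had a median of 0.26. The widest gap, 1.99, was that of BZIP105 and its dimmest probe set. In 3 genes all probe sets passed at 30% inhibition, in 5 some did and in 15 none did. Probe sets whose design lets them bind several transcripts, by the ending of their name, made up 17 of the 87. Related bZIP genes may bind the same probes, and 7 design clusters held probe sets of more than 1 member gene, 14 genes in all.

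**Figure D4:**
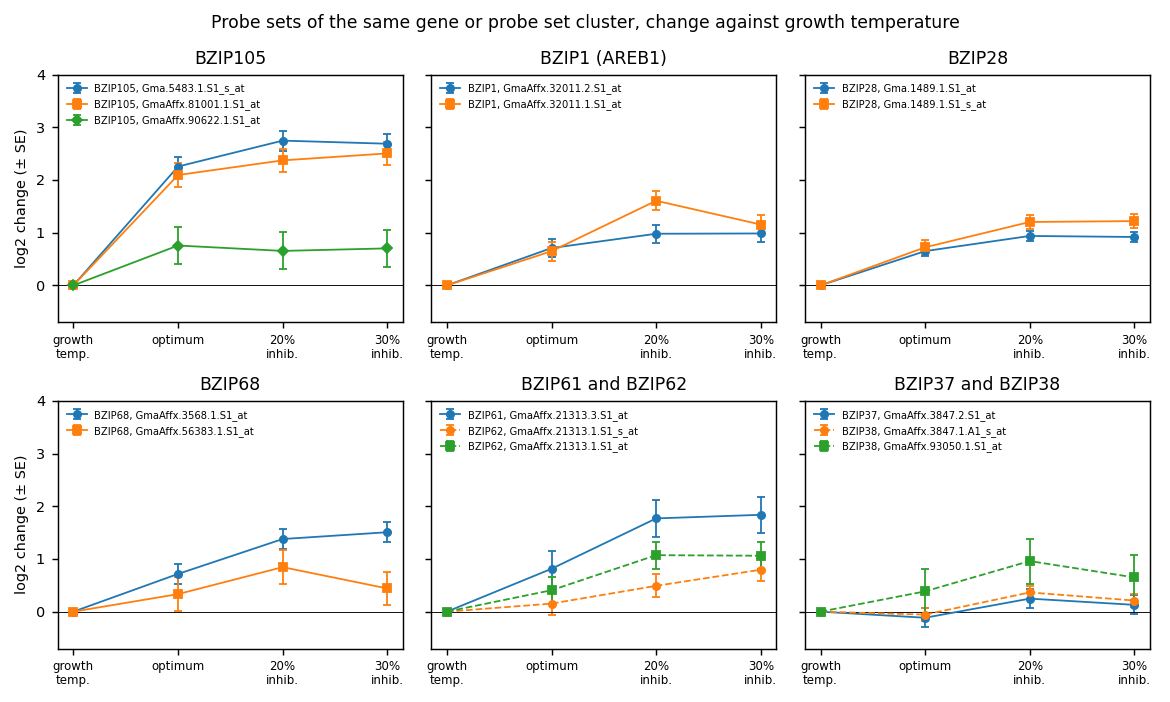
Log2 change against growth temperature (± SE) for each tested probe set of BZIP105, BZIP1, BZIP28 and BZIP68, and of the gene pairs BZIP61 with BZIP62 and BZIP37 with BZIP38 that share a design cluster, at growth temperature (set to 0), the optimum, 20% and 30% inhibition. The dimmest probe set of BZIP105 ends at 0.70 where the other probe sets of this gene end at 2.69 and 2.50.

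BZIP48 and BZIP50, chosen here after their values were seen, varied widely between arrays of 1 state. The pooled within-state SD of the log2 signal was 2.03 and 1.60 for the 2 probe sets of BZIP50 and 1.30 for BZIP48, beside a median of 0.30 over the 87 bZIP probe sets and 0.30 over all probe sets tested. BZIP48 had signals of 159, 25.6, 313 and 56.1 at growth temperature, 223, 205, 596 and 385 at the optimum, 119.6, 58.8, 41 and 339 at 20% inhibition, and 267, 41.3, 335 and 100.0 at 30% inhibition. The brighter probe set of BZIP50 had 394, 26.3, 471 and 66.8, then 259, 214, 894 and 509, then 269, 72, 27 and 463, then 212, 85.4, 304 and 37 in the same order. Growth temperature replicates 1 and 3 were high and 2 and 4 low for both genes, and all 4 optimum arrays were above background for both. At 30% inhibition replicates 1 and 3 again exceeded 2 and 4 for both genes. By BZIP48 and the brighter probe set of BZIP50, replicates 3 and 4 were the higher ones at the optimum, and 1 and 4 at 20% inhibition. Neither gene passed in any comparison. Probes that bind both genes were not tested for.

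**Figure D5:**
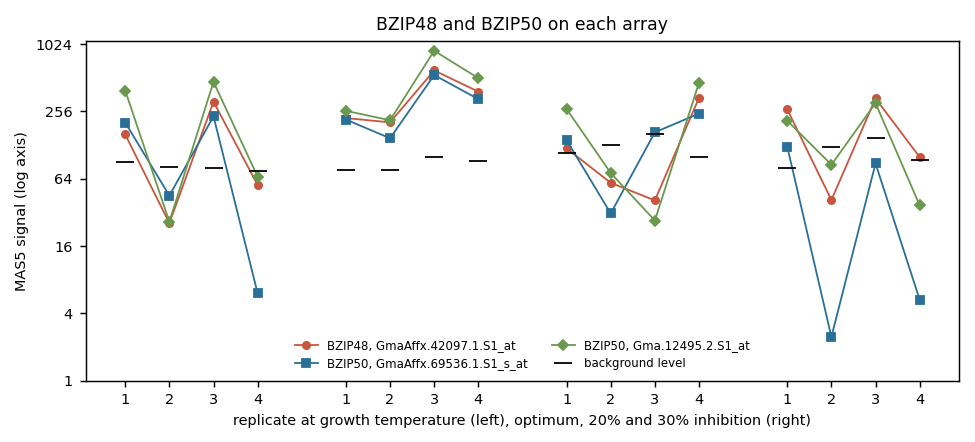
MAS5 signal (log axis) of BZIP48 and of both probe sets of BZIP50 on each array, grouped from left to right as growth temperature, optimum, 20% and 30% inhibition, with the background level of each array as a dash. The 3 probe sets are high on growth temperature replicates 1 and 3 and below background on replicates 2 and 4.

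BZIP69, also chosen after its values were seen, had signals of 121, 19.6, 121 and 90.4 at the optimum, 105, 8.72, 145 and 125 at 20% inhibition, and 92.4, 103, 238 and 121 at 30% inhibition, against 241, 200.1, 308 and 263 at growth temperature. The optimum and 20% inhibition did not overlap with growth temperature, and 2 arrays at the optimum and 3 at 20% inhibition were below background. No change passed, with -1.81 ± 0.76 at the optimum (adjusted p = 0.14), -1.97 ± 0.76 at 20% inhibition (0.053) and -0.96 ± 0.76 at 30% inhibition (0.36). With signals under the background of their array set to it, the first 2 changes were -1.32 and -0.95.

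In 26 genes the brightest probe set passed in no warmer state, and in 4 of them, BZIP108, BZIP109, BZIP87 and BZIP89, the 95% intervals of all 3 changes lay within 0.5 on the log2 scale. BZIP109 had signals of 1461, 1475, 1310.4 and 1340.2 at 30% inhibition, against 1244, 1201, 1299 and 1404 at growth temperature, and an interval of -0.10 to 0.34. BZIP109 and BZIP89 had 1 tested probe set each. The other probe set of BZIP87 reached further, with intervals of -0.95 to -0.04 at the optimum and -1.02 to -0.10 at 30% inhibition, and did not pass (adjusted p of 0.15 and 0.054). The other probe sets of BZIP108 had intervals down to -0.82 and -1.01 at 30% inhibition. In the other 22 genes at least 1 interval reached past 0.5, and a change of that size is not shown to be absent. BZIP59, named for its high mean signal, gave 0.02, -0.21 and -0.09 (SE 0.17) by its brightest probe set. Another probe set of BZIP59 fell by 0.40 ± 0.14 at 20% inhibition without overlap (adjusted p = 0.033).

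The 16 bZIP probe sets that were not tested belong to 9 genes with no tested probe set and to further probe sets of 6 tested ones. The 9 genes were BZIP35, BZIP42, BZIP44, BZIP46, BZIP47, BZIP81, BZIP82, BZIP112 and BZIP132, and 9 of the 16 probe sets lay below background on all 16 arrays. BZIP44 and BZIP132, which like BZIP62 have been studied for salt or abscisic acid responses in transgenic Arabidopsis, were among those below background throughout. A further 7 of the 16 probe sets had 1 array or more above background. Among these was BZIP47, with 133, 140, 114 and 81.8 at growth temperature, all above background. At 20% inhibition it had 18.8, 58.3, 38.7 and 68.4, all below background. The filter left BZIP47 untested, so the counts of falls do not cover it.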

How the data were processed

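The authors deposited 1 linear signal intensity per probe set and array, made with MAS5 per the submitters' processing notes. Neither the MAS5 version nor its settings is given in the sources used here. The mean intensity without the top and bottom 2% was 500.0 on every array, so the values are on 1 common scale and cannot show a change of total messenger RNA. No 2 arrays held identical values. Intensities were taken to log2 with no constant. The 135 control probe sets were left out, and 30517 of 61035 others passed the filter. limma 3.58.1 under R 4.3.3 fitted a mean per state over 16 arrays, with a prior variance that followed the signal and 16.4 total degrees of freedom, and p-values were adjusted by Benjamini-Hochberg over all probe sets tested. The number of arrays limits the precision. The fit was tested on simulated data. Array properties were compared by exact permutation.

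Gene names came from the platform annotation and a RefSeq table, with 8652 of 8677 single-gene probe sets matched by gene identifier. The gene identifiers of BZIP54, BZIP83 and BZIP95 were not among those matched. The tested probe set of highest mean signal stood for a gene. Genes given with values were the 8 largest rises and falls that passed in each warmer state, the 4 largest of each step between states, the 5 of highest mean signal, BZIP105, BZIP61 and BZIP83, and members of a known role. Members and lists were chosen with earlier results of these data known. Pathway lists held genes whose names give the product, and are described by counts and medians over their tested probe sets. Values are also given for some list genes, in part by a selected probe set. These genes lie outside the rule for named genes, no rule for picking them is given, and they do not stand for their list. Array positions in the genome and sequences are not used here. Alternatives were a constant of 32, a floor at background, quantile normalization, other filters and variance models, array weights, a replicate block, the background as a covariate and each array left out. Leaving out the 3 arrays of highest background (20% inhibition replicates 2 and 3, 30% inhibition replicate 3), a stricter membership and leaving out shared probe sets were chosen after seeing the data.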

Additional observations from a re-analysis of the deposited data

Results flagged for a closer look

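In 6 of 112 groups of 4 arrays, 1 array lay far from the other 3 of its state, relative to their range (Dixon's test at 95%). Chance alone gives about 1 in 20 such groups. All 6 were low values. LOC100127361 (bZIP84) was at 1006 on 30% inhibition replicate 3, against 1686 to 1705 on the other arrays of that state. BZIP72 was at 136 on 20% inhibition replicate 1, against 203 to 213. BZIP124 was at 5946 on 20% inhibition replicate 4, against 9061 to 9393. BZIP16 was at 401 on optimum replicate 1, against 471 to 487, and LOC780550 was at 4583 on that array, against 5610.2 to 5829. BZIP63 was at 834 on growth temperature replicate 2, against 905 to 907.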

How the results depend on the processing

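Most results kept their direction and their side of the threshold. Over 1743 values for 59 results of named genes, 1609 did so, 134 no longer passed and 0 changed sign while called. The 1609 include values under the stricter membership and without shared probe sets. Both reuse the main fit, so a gene's value could not change there. Of 58 gene changes that passed, 40 passed with each of the 16 arrays left out in turn, 41 with the background covariate, 43 without the 3 arrays of highest background, and 30 under every alternative run. With the background covariate the number of bZIP probe sets called was 21 at 20% inhibition, 7 between 20% inhibition and the optimum and 20 by the F-test, beside 23.2%, 7.28% and 22.8% of all probe sets tested. Without the 3 arrays of highest background it was 4 between 20% inhibition and the optimum and 22 at 20% inhibition, beside 9.39% and 29.1% of all. Leaving out each array in turn gave 9 to 16 at the optimum, with 9 without growth temperature replicate 3 or without optimum replicate 4, 25 to 35 at 20% inhibition, 24 to 30 at 30% inhibition, 9 to 13 between 20% inhibition and the optimum, 27 to 35 by the F-test and 0 between 30% and 20% inhibition. The shares of all probe sets called ran from 8.96% to 14.2%, 31.1% to 35.97%, 29.8% to 36.5%, 12.2% to 18.0%, 30.1% to 37.0% and 0% in the same order. The cause was not tested. The difference in array background from growth temperature ran from -0.01 to 0.12 at the optimum, 0.45 to 0.69 at 20% and 0.26 to 0.56 at 30% inhibition, on the log2 scale.

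Whether the replicate numbers of the titles pair the arrays is left unsaid by the labels. Correlations cannot settle it, since a shared plant need not make the deviations of its arrays alike. Same-number arrays of different states had correlations of their deviations from -0.28 to 0.22 with a median of 0.05. Arrays of other numbers had -0.32 to 0.35 with a median of -0.00. Above 0.1 were 7 of 24 same-number pairs and 13 of 72 pairs of other numbers. Of the 16 arrays, 3 correlated best with one of their own number. With the replicate block 14, 33 and 28 bZIP probe sets were called at the optimum, 20% and 30% inhibition, 13 between 20% inhibition and the optimum, 0 between 30% and 20% inhibition and 34 by the F-test. The shares of all called were 11.7%, 34.3%, 33.3%, 15%, 0% and 33.2% in that order. The block changed 2 named calls, the step of BZIP28 between the optimum and 20% inhibition (0.29, adjusted p = 0.0571) and the change of LOC778136 at 20% inhibition (-0.35, adjusted p = 0.0547).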
